A study of Mus musculus with 4 samples.

Results

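Brachyury (*T*) marks the primitive streak and, later, the growing posterior end of the mouse embryo, and 91 of the 5850 day 6 gastruloid cells kept here carried its transcripts with few or none of *Foxa2*. These T-positive cells were selected on UMI counts, a UMI being 1 captured transcript molecule. Each cell had 2000 or more UMIs, a share of mitochondrial transcripts under 20%, 3 or more UMIs of *T* and fewer than 3 of *Foxa2*, a factor of the node, notochord and endoderm. They made up 1.56% of the kept day 6 cells, with an exact Clopper-Pearson interval of 1.25 to 1.91%. All intervals given here are at 95% and cover counting error only. Across the 4 libraries there were 31330 barcodes, of which 29190 passed the same limits on depth and mitochondrial share.

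Gastruloids are aggregates of mouse embryonic stem cells (mESCs) that elongate and form derivatives of the germ layers in culture. All cells came from wild type Zx1 mESCs, a single line, grown in N2B27 medium. The aggregates were treated with the Wnt agonist CHIR99021 from day 2 for 1 day, and from day 4 to day 7 with bFGF, VEGF and ascorbic acid under shaking. Pooled gastruloids gave 1 library on each of days 4, 5, 6 and 11, made with a droplet kit that reads the 3′ end of transcripts. The day 4 cells therefore had the CHIR99021 pulse and no growth factors before collection, while the day 6 cells had both. With 1 library per day no test between days or sets of cells was possible, and a day cannot be told apart from its library.

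In the embryo, the tailbud continues axial elongation after gastrulation. It holds progenitors that keep *T* together with the neural factor *Sox2* under Wnt and FGF signals, and that feed the spinal cord and the presomitic mesoderm. Presomitic mesoderm is marked by *Tbx6* and is patterned by a Notch clock whose oscillating genes include *Hes7*. Retinoic acid from the older trunk opposes FGF there, and *Cyp26a1* degrades it at the posterior end. The Hox genes of higher paralogue number are switched on later and mark more posterior levels of the axis.

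*T* itself and *Sp5*, a Wnt-responsive zinc finger gene among the 3 marker genes given for these cells, are shown by their promoters. Both genes respond to Wnt signals in the embryo. The other marker, *Fgf8*, had no promoter in the RefSeq set used and is not shown. The sequences are from RefSeq on GRCm38.p6, the assembly known as mm10 that the submitters' processing notes name. Each runs from 250 bases before to 50 bases after the annotated start, on the plus strand. Capitals mark a match to CTTTGAT, a core letter sequence of the TCF/LEF factors that carry Wnt signals to DNA.
T, chr17:8434173-8434472: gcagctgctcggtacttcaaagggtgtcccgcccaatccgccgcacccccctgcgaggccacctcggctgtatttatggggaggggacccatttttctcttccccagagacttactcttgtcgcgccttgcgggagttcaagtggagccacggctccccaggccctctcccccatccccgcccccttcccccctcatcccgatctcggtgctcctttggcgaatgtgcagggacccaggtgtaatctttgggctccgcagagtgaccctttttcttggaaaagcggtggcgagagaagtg
Sp5, chr2:70474673-70474972: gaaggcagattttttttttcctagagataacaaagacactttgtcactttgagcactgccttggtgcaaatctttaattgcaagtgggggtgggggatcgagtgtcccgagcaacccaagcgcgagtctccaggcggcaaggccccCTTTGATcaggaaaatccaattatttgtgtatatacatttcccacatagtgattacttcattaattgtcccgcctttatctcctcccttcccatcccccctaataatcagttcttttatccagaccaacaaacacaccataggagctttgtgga
The *Sp5* promoter held 1 match, on the strand of the gene, that began 104 bases before the start. The *T* window held no match to CTTTGAT, to the T-box letters AGGTGTGA or to the CDX letters TTTATTG on either strand, which says only that these letters are not in this window. Promoters were looked up for *T*, *Fgf8*, *Sp5* and the genes at least 4-fold higher in the T-positive cells than in other day 6 cells. Of these 57 genes, 44 had a promoter in the lookup. Promoters on 1 chromosome were left out of this lookup, but not of the shares over all genes. CTTTGAT or its complement ATCAAAG was in a promoter of 4 of the 44 genes (*Defa30*, *Greb1*, *Sp5* and *Tnfrsf19*), or 9.09%, beside 4.29% of all 27025 genes with promoters of the same length. TTTATTG or CAATAAA was in 3 of the 44 (*Evx1*, *Gcnt2* and *Sp8*), or 6.82%, beside 5.33% of all genes. AGGTGTGA or TCACACCT was in none of the 44, beside 1.48% of all genes. These are counts of letter matches and no evidence of binding.

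Depth bears on the selection, since a deeper cell reaches 3 UMIs of *T* more easily. The T-positive cells held between 19441 and 128624 UMIs, with a median of 41340, whereas the other 5759 day 6 cells had a median of 25353. Mitochondrial transcripts took a median of 3.45% of UMIs in the T-positive cells and 2.82% in the others. Over all kept cells, day 11 was shallower (median 12082 UMIs) than day 4 (25335 UMIs), day 5 (28400 UMIs) or day 6 (25581 UMIs). Day 6 shared 5, 19 and 16 barcodes with days 4, 5 and 11, none of which belonged to a T-positive cell. No cell was removed as a doublet, and 11 of the 91 cells were among the 8% of day 6 cells with the highest doublet scores. The part of doublets in the results below was not tested. Most shares of cells with 1 or more UMIs are also given after thinning to equal depth, whereas shares with 3 or more UMIs were not thinned and carry the difference in depth.

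*T* transcripts became rarer along the time course. *T* stood at 38.8 CPM, that is UMIs scaled to 1000000 UMIs of the same cells, over all kept cells at day 4 (interval 38.0 to 39.6), at 8.28 CPM at day 5 and at 6.26 CPM at day 6 (5.90 to 6.63). At day 11 a single *T* UMI was found in 8730 cells. Cells with 3 or more *T* UMIs numbered 850 of 7202 at day 4 (11.8%), 237 of 7408 at day 5 (3.20%) and 117 of 5850 at day 6 (2.00%), of which 26 had 3 or more *Foxa2* UMIs and were left out. No cell reached 3 at day 11, where the median depth was 12082 UMIs. By a limit of 3 cells this allows a share of up to 0.0344%, and the exact Clopper-Pearson upper bound is 0.0423%. When cells were thinned at random to 5000 UMIs, leaving out the 30, 164, 115 and 340 shallower cells of days 4, 5, 6 and 11, the share of cells with any *T* UMI was 11.6%, 3.20%, 1.45% and 0% in the same order, so the order of the days was the same at equal depth.

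Within the T-positive cells the number of *T* UMIs ran from 3 to 29 with a median of 5. As a level per cell this was 23.3 CPM at the lowest, 111 CPM at the median and 702 CPM at the highest. These values chose the cells and are given as a description. Selection by UMIs leaves few cells at equal depth, since 4 cells kept 3 or more *T* UMIs after thinning.

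Cells just outside the limit already carried tailbud genes. Among cells with fewer than 3 *Foxa2* UMIs, the 48 cells with 2 *T* UMIs had *Fgf8* at 73.2 CPM and *Sp5* at 54.3 CPM, and the 28 cells with exactly 3 had *Fgf8* at 126 CPM and *Sp5* at 49.3 CPM. *Fgf8* encodes a posterior FGF ligand. *Fgf8* stood at 5.52 CPM in the 5491 cells with no *T* UMI and at 33.9 CPM in the 104 cells with 1. Inside the limit it reached 191 CPM in the 23 cells with 4 or 5, 284 CPM in the 23 cells with 6 to 9 and 578 CPM in the 17 cells with 10 or more *T* UMIs. *Fgf8* was thus higher at every step of *T*, below the limit of 3 as well as above it.

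Other posterior genes had the same order over most steps. *Fgf17*, a close relative of *Fgf8*, went from 2.06 CPM with no *T* UMI to 29.1, 79.7, 97.9, 163, 270 and 385 CPM at the successive steps. *Hes7* went from 3.48 to 371 CPM at 6 to 9 *T* UMIs and was 363 CPM at 10 or more. *Sox2* behaved differently, with 30.4 CPM at no *T* UMI, 71.9 CPM at 2 and 28.8 CPM at 10 or more, so its highest level was in cells just outside the limit. Median depth was 24820 UMIs in cells with no *T* UMI and between 39558 and 47471 at all other steps.

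**Figure D1:**
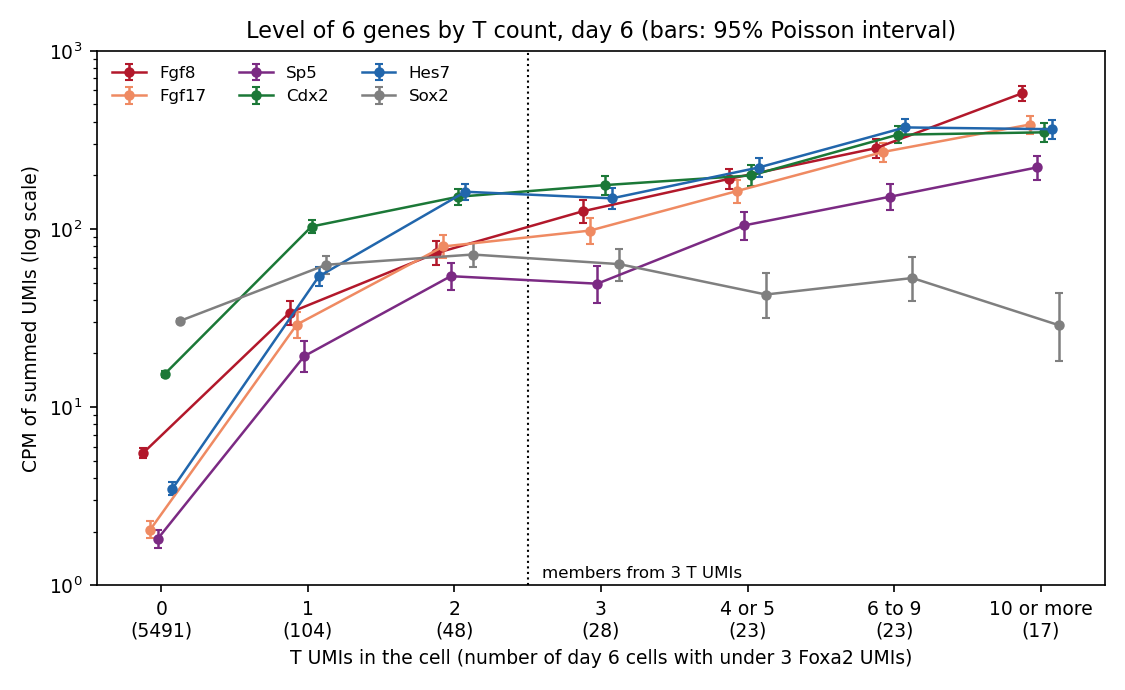
Summed expression (CPM, log axis) of posterior genes in day 6 cells with fewer than 3 Foxa2 UMIs, by the number of T UMIs of the cell; error bars are exact Poisson intervals at 95%. Fgf8 and Fgf17 are higher at each step of T, from 5.52 and 2.06 CPM with no T UMI to 578 and 385 CPM with 10 or more, whereas Sox2 is highest at 2 T UMIs.

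The label of tailbud-like cells was compared with the other given markers, which the selection did not use. *Fgf8* per cell was 0 at the lowest, 147 CPM at the median and 2183 CPM at the highest, and 79 of the 91 cells held at least 1 UMI. *Sp5* per cell was 0 at the lowest, 108 CPM at the median and 483 CPM at the highest, with a UMI in 80 cells. Most T-positive cells thus carried each marker, with a minority at 0. Both were found in 72 of the 91 cells (79.1%, interval 69.3 to 86.9%) and neither in 4, whereas 122 of the other 5759 day 6 cells (2.12%) held both. After thinning these shares were 30.8% and 0.354%.

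Free transcripts in droplets can place UMIs in cells that do not express a gene, so the shares were read beside 832 day 6 cells with 20 or more UMIs of *Myl7*, an atrial myosin light chain. Their median depth was 25763 UMIs. *Fgf8* was found in 86.8% of T-positive cells, in 8.07% of other day 6 cells and in 13.7% of the *Myl7* cells, or after thinning in 55.0%, 2.96% and 4.53%. *Sp5* was found in 87.9%, 4.65% and 2.52%, or after thinning in 42.9%, 1.28% and 0.122%. Both shares were higher in the T-positive cells than in the *Myl7* cells at equal depth. The *Myl7* cells are no clean background, since single cells of the set held up to 12 *T* UMIs and 163 of the 832 were among the 8% of highest doublet scores. These markers do not set the cells apart from *T* cells of other kinds, since 528 of the 850 day 4 cells with *T* (62.1%, 20.7% thinned) also held both *Fgf8* and *Sp5*, so tailbud-like is used here as a working name.

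The caudal factor *Cdx2*, the clock gene *Hes7* and the posterior Hox gene *Hoxc10* were as widespread. *Cdx2* was found in 95.6% of T-positive cells (59.3% thinned) beside 14.9% of the others (6.01% thinned), *Hes7* in 93.4% (61.5%) beside 6.39% (2.09%), and *Hoxc10* in 87.9% (64.8%) beside 13.3% (6.80%). In the *Myl7* cells the thinned shares were 1.22%, 0.979% and 2.20%. Per cell, *Cdx2* was 0, 253 and 750 CPM at the lowest, median and highest, *Hes7* was 0, 211 and 1234 CPM, and *Hoxc10* was 0, 314 and 1173 CPM. Each of these genes had a few T-positive cells at 0 and a wide range among the rest.

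The first comparison asked how the T-positive cells differ from the 5759 other cells of day 6. Genes were compared by the ratio of summed CPM where the mean of both sets was at least 10 CPM, and a gene was called higher at a ratio of 2 or more and lower at 0.5 or less. *T* and *Foxa2* were left out. Of 7891 genes, 183 (2.32%) were called higher and 518 (6.56%) lower, with a median ratio over all genes of 1.02. The exact conditional interval of the ratio excluded 1 for each called gene, which the level tested and the 2-fold limit ensure at these summed depths. It is thus no further check on the calls. The interval pools UMIs over cells and leaves out the spread between cells. A gene at or under 6.667 CPM in 1 set can reach this mean only with a 2-fold difference, so its call was fixed by the level tested and counts as a description. Of the genes not so fixed, 3 of 4 posterior progenitor, 6 of 7 Wnt, 4 of 9 FGF and 17 of 25 Hox genes were called higher, and 9 of 9 cardiomyocyte, 6 of 6 mesenchymal, 2 of 2 endothelial and 2 of 2 endodermal genes lower.

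The 15 genes of highest ratio among those with 50 CPM or more were led by the ligand *Fgf17*, at 203 CPM in the T-positive cells and 4.63 CPM in the others, a ratio of 43.9 (39.9 to 48.3). *Hes7* followed with a ratio of 31.7 (29.2 to 34.3), then *Sp5* with 28.1 (25.1 to 31.6) and *Fgf8* with 23.9 (22.2 to 25.8). FGF ligands, a clock gene and the Wnt-responsive *Sp5* thus lead the list. The next were the caudal factor *Cdx4* (18.6), the retinoic acid-degrading enzyme *Cyp26a1* (17.9), the Notch ligand *Dll3* (16.1) and the Wnt enhancer *Rspo3* (14.7). The rest were the noncoding *Hoxaas3* (14.3), the forkhead gene *Foxb1* (11.9), *Cdx2* (10.1), *Hoxc10* (9.45), *Hoxb1* (7.16), *Gm45889* (7.16) and the ephrin receptor *Epha5* (7.05). *Hoxaas3* lies within the *Hoxa* cluster, where neighbouring transcripts may share reads.

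**Figure D2:**
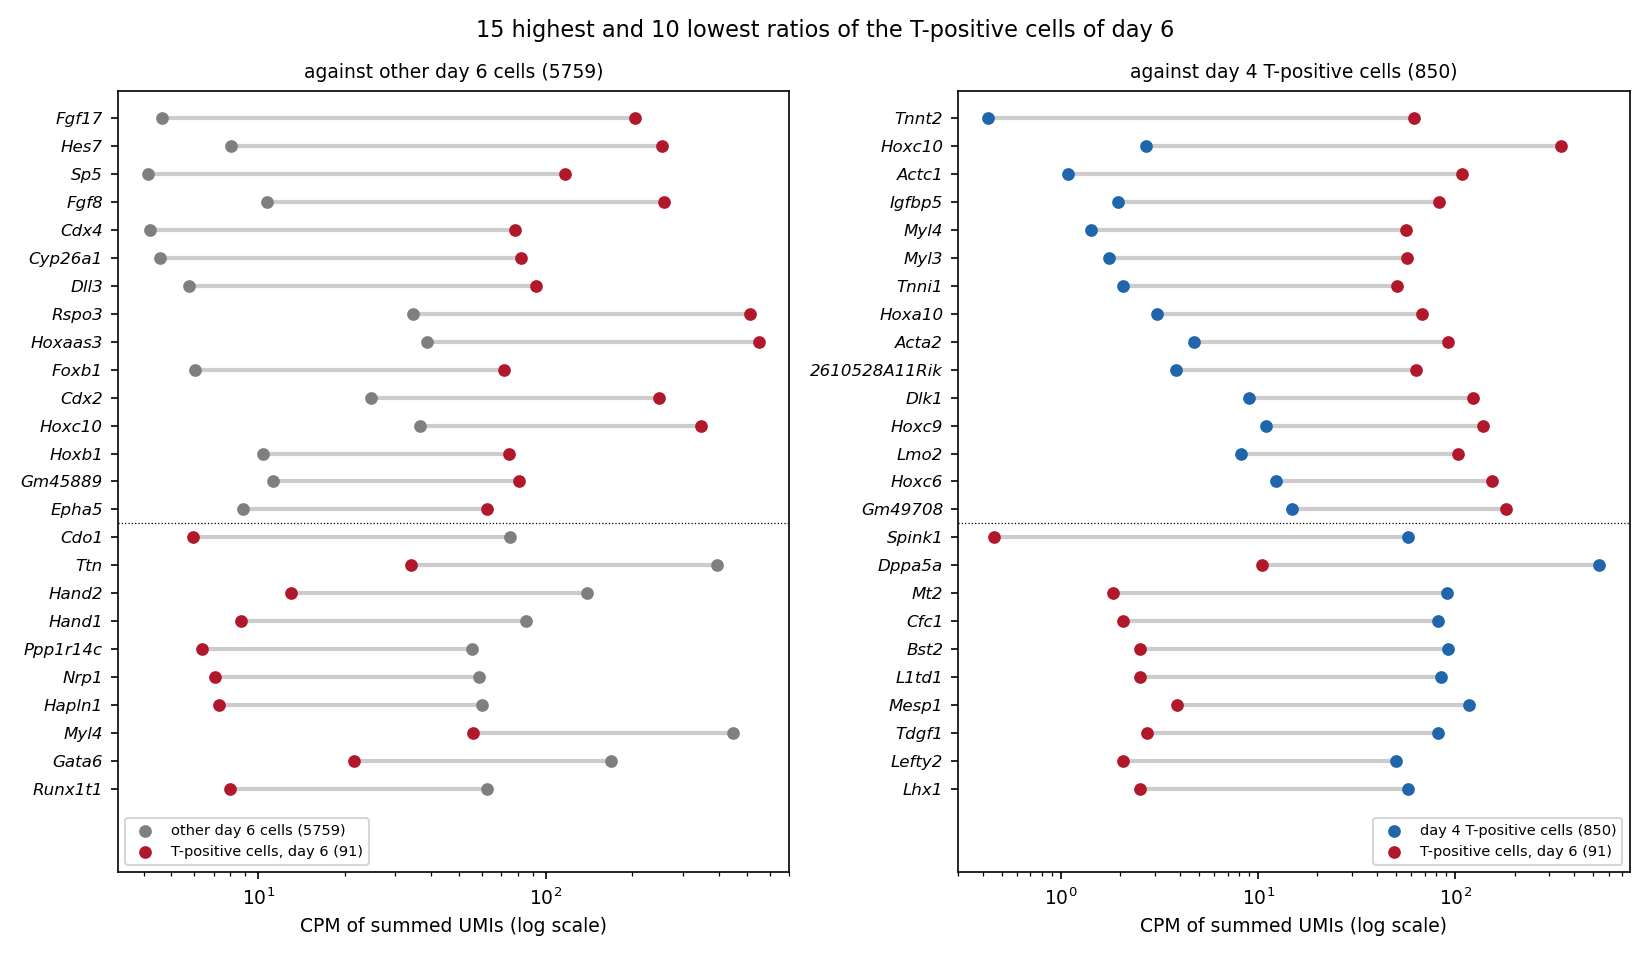
Summed expression (CPM, log axis) of the 15 genes of highest and the 10 of lowest ratio in the T-positive cells of day 6, against other day 6 cells (left) and against T-positive cells of day 4 (right); each point is a set of cells and the grey line joins the sets. On the left Fgf17 has the widest gap among the higher genes (203 against 4.63 CPM) and Cdo1 among the lower (5.95 against 74.8 CPM), and on the right Tnnt2 and Spink1 do.

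Of the 12 posterior progenitor factors, 9 were at the level tested, and 8 of these were higher and none lower. The level tested fixed the call of 5, and the other 4 had a median ratio of 3.004 beside 1.02 over all genes. *Cdx2* stood at 248 CPM against 24.6 CPM, *Cdx4* at 78.2 against 4.21 CPM, and the homeobox gene *Evx1* at 27.9 against 1.24 CPM. The stem cell factors *Lin28a* and *Sall4* were higher by smaller ratios, 3.64 and 2.37. The ninth, *Sox2*, had 49.6 CPM against 33.4 CPM, a ratio of 1.49 (1.29 to 1.70) that is below the 2-fold limit. The other 3 members of the list were below the level tested, among them *Nkx1-2*, a marker of neuromesodermal progenitors, at 8.004 CPM against 1.002 CPM, and *Cdx1* at 7.78 against 0.204 CPM.

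Wnt pathway genes were higher in 8 of the 9 tested of 16, and none was lower. The level tested fixed 2 of these calls, and the other 7 genes had a median ratio of 3.27. Among the ligands, *Wnt5a* stood at 104.5 CPM against 41.0 CPM (ratio 2.55) and *Wnt5b* at 19.0 against 6.19 CPM (3.07). *Wnt3a*, the ligand most tied to the tailbud, was below the level tested, with 52 UMIs or 11.9 CPM against 0.311 CPM. *Rspo3*, which potentiates Wnt signals at the receptor, stood at 510.5 against 34.6 CPM (14.7). Among genes that respond to Wnt, *Lef1* had a ratio of 4.51, *Axin2* 3.002 and *Nkd1* 3.27. These ratios are against all other day 6 cells together, and values against cells with *Tbx6* and few *T* UMIs are given below. The antagonist *Dkk1* was the exception, with 23.3 against 28.01 CPM and a ratio of 0.833 (0.678 to 1.01).

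FGF pathway genes were higher in 7 of the 12 tested of 16 and lower in none. The level tested fixed 3 of these calls, and the other 9 genes had a median ratio of 1.525. Besides *Fgf8* and *Fgf17*, the ligand *Fgf3* stood at 21.3 against 0.855 CPM, a ratio of 24.9 (19.0 to 32.4). *Spry4*, *Etv4*, *Etv5* and *Dusp6*, which FGF signals switch on, had ratios of 5.63, 3.93, 2.59 and 2.48. The receptor *Fgfr1* did not differ by this measure, at 50.1 against 49.0 CPM with a ratio of 1.02 (0.890 to 1.17).

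For the retinoic acid pathway, 2 of the 6 genes tested of 10 were higher and 1 was lower. The level tested fixed both higher calls, and the other 4 genes had a median ratio of 0.638. The enzyme *Cyp26a1* stood at 81.9 against 4.58 CPM (17.9, 15.8 to 20.3) and the receptor *Rarg* at 30.4 against 6.50 CPM (4.68). *Rdh10*, an enzyme of retinoic acid synthesis, was lower at 9.15 against 28.8 CPM (0.318, 0.227 to 0.434). *Aldh1a2*, which makes retinoic acid, was below the level tested at 5.03 against 10.4 CPM. The degrading enzyme and the synthetic enzymes thus had ratios on opposite sides of 1.

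Notch and segmentation clock genes were higher in 4 of the 10 tested of 12, with none lower. The level tested fixed 2 of these calls, and the other 8 genes had a median ratio of 1.13. These were *Hes7* (254 against 8.03 CPM), *Dll3* (92.2 against 5.73 CPM), the ligand *Dll1* (40.5 against 6.01 CPM) and the feedback gene *Nrarp* (68.8 against 13.99 CPM). *Hes1*, which is used in many tissues, had a ratio of 0.944 (0.837 to 1.06). Of the 8 presomitic mesoderm genes only *Tbx6* reached the level tested, at 48.5 against 1.72 CPM, a ratio of 28.3 (23.6 to 33.8). Its call was fixed by the level tested. *Msgn1*, a presomitic factor, had 6 UMIs in the T-positive cells and 4 in the others. Of the 9 somite genes, 5 were tested, *Tcf15* was higher (2.39), *Foxc2* lower (0.463) and *Meox1* at a ratio of 0.999.

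Genes of cardiomyocytes, endothelium, mesenchyme and endoderm were lower. All 9 cardiomyocyte genes tested of 10 were lower, with a median ratio of 0.164, and none of these calls was fixed by the level tested. The level fixed the calls of 4 of the 6 endothelial, 2 of the 8 mesenchymal and 2 of the 4 endodermal genes tested, and the rest of each list was lower as well. Of neural ectoderm 2 of 9 genes were tested, *Sox3* at 20.1 against 8.51 CPM (2.37) and *Irx3* at 13.9 against 41.1 CPM (0.340). The 10 genes of lowest ratio included the cardiac and mesenchymal factors *Hand2* (0.0940), *Hand1* (0.102) and *Gata6* (0.128), and the titin gene *Ttn* (0.0865). The lowest was *Cdo1*, an enzyme of cysteine breakdown, at 5.95 against 74.8 CPM, a ratio of 0.0795 (0.0519 to 0.117). The others were *Ppp1r14c*, *Nrp1*, *Hapln1*, *Myl4* and *Runx1t1*, between 0.116 and 0.129. The node and notochord genes *Shh* and *Noto* had 3 and 1 UMIs in the 91 cells. *Foxa2*, which the rule limits, is a gene of the node, notochord and endoderm. The part of that limit in the values of these lists was not tested.

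Summed per cell, the 10 cardiomyocyte genes ran from 0 to 16967 CPM in the T-positive cells, with a median of 56.8 CPM beside 192 CPM in the others. The 9 endothelial genes ran from 0 to 1236 CPM with a median of 25.3 CPM, and the 10 endodermal genes from 0 to 1621 CPM with a median of 0. For endoderm, *Ttr*, *Apoa2* and *Afp* were at 0 UMIs in the T-positive cells. For blood, *Hba-a1*, *Hbb-y*, *Gata1* and *Klf1* were at 0, and the 8 blood genes summed to at most 27.3 CPM in a cell. High sums of other cell types were thus held by a few cells.

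A single T-positive cell carried most of the cardiac transcripts. It had 108387 UMIs, 565 UMIs of *Myl7* and a doublet score in the top 8%, and it fell among cells led by *Myl2*, *Myl3* and *Myh6*. It held 74.4% of all *Myl7*, 74.9% of all *Tnnt2*, 84.6% of all *Actc1* and 96.4% of all *Myl3* UMIs of the 91 cells. It held less of others, with 37.6% of *Tnni1* and 57.7% of *Ttn*. Without this cell the median ratio of the cardiomyocyte genes to the other day 6 cells was 0.0375 in place of 0.164, and their summed level was 149 CPM in place of 566 CPM.

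The T-positive cells were not of a single kind. Day 6 cells were grouped by their shared nearest neighbours over 2000 variable genes, leaving out *T*, *Foxa2*, *Fgf8* and *Sp5*, which gave 19 groups. Of the 91 cells, 46 fell in a group of 525 cells led by *Pou3f2*, *Hes5* and *Sox3*, genes of the neural plate and tube, here the Sox3 group. Another 37 fell in a group of 100 cells led by *Tbx6*, *Fgf18* and *Hes7*, here the Tbx6 group. T-positive cells were 8.76% of the Sox3 group (6.49 to 11.5%) and 37.0% of the Tbx6 group (27.6 to 47.2%).

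The other 8 cells were spread over 6 groups, and 4 of the 8 had doublet scores in the top 8%. Among the 20 nearest neighbours of a T-positive cell, a median of 10 were T-positive, whereas 0.311 would match their share of the library. The other day 6 cells had 0.143 T-positive neighbours on average. The share of cells lying in either the Sox3 or the Tbx6 group was 7.74% at no *T* UMI, 51.9% at 1, 72.9% at 2 and 82.1% at 3, and 17 of 17 cells with 10 or more *T* UMIs were there. Cells rich in *T* were thus concentrated in a small part of the library.

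*Sox2* and *Tbx6* counts divided the cells only in part along these groups. *Sox2* was at 3 or more UMIs in 16 of the 46 T-positive cells of the Sox3 group and in 8 of the 37 of the Tbx6 group, and *Tbx6* in 3 and 18 of them. With 3 or more UMIs as the limit, 25 cells had *Sox2* only (27.5%), 20 had *Tbx6* only (22.0%), 3 had both (3.30%) and 43 had neither (47.3%). Per cell, *Sox2* was 0, 28.1 and 444 CPM at the lowest, median and highest, and *Tbx6* was 0, 25.3 and 402 CPM. With 1 or more UMIs as the limit, 29 cells held both genes (31.9%, 22.5 to 42.5%), at a median depth of 52145 UMIs, whereas 49 of the other 5759 cells did (0.851%). The cells with both at 1 or more were deeper than the median T-positive cell. After thinning to 5000 UMIs, 0 of the 91 cells held both. By a limit of 3 cells this allows a share of up to 3.30%, and the exact upper bound is 3.97%. Among 5644 other cells 3 held both (0.0532%), so no difference in cells with both genes was detectable at equal depth.

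T-positive cells of the Sox3 group and of the Tbx6 group expressed different genes. The groups were formed from these same counts, so the differences are a description. *Tbx6* stood at 97.8 CPM in the Tbx6-group cells and at 16.0 CPM in the Sox3-group cells, and *Sox3* had 2 UMIs in the former and 82, or 37.5 CPM, in the latter. Genes of the same list lay on both sides. *Dll1* stood at 82.8 against 11.9 CPM (6.97, 4.56 to 11.1), *Dll3* at 176 against 33.8 CPM (5.22), *Snai1*, a driver of epithelial to mesenchymal transition, at 76.2 against 14.6 CPM (5.21), and *Lef1* at 179 against 51.2 CPM (3.51). The Wnt genes *Wnt5a* (64.8 against 144 CPM, 0.450), *Wnt3a* (0.449) and *Notum* (0.375) and the Notch target *Hes1* (21.6 against 94.1 CPM, 0.230) were lower in the Tbx6-group cells. The protocadherin *Pcdh19* was at 34.2 against 2.28 CPM (14.97, 6.05 to 47.9). Of the other presomitic genes, *Msgn1*, *Mesp1*, *Mesp2*, *Ripply2* and *Pcdh8* had between 0 and 14 UMIs in either set, too few for a comparison. *Dkk1* was at 52.2 against 5.03 CPM, of which 1 cell held 42 of the 102 UMIs found in the 91 cells.

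Other posterior genes were higher in the Sox3-group cells. *Cdx4* stood at 142 against 18.0 CPM, so that the ratio of Tbx6-group to Sox3-group cells was 0.127 (0.0843 to 0.185), and *Cyp26a1* at 144 against 22.8 CPM (0.158). *Hes5*, a Notch-linked gene of neural progenitors, stood at 32.9 against 4.20 CPM, and *Hes3*, of the same gene family, at 22.4 CPM against 0 UMIs. *Fgf17* was at 323 against 95.4 CPM (0.296), *Fgf8* at 323 against 170 CPM (0.527) and *Cdx2* at 344 against 168 CPM (0.488). Of the 284 *Fgf8* UMIs in the Tbx6-group cells, 1 cell held 112. *Hes7* (215 against 359 CPM) and *Rspo3* (502.5 against 602 CPM) were on the side of the Tbx6-group cells by less than 2-fold. Per cell, the *Hoxc10* median was 479 CPM in the Sox3-group cells, with a UMI in 46 of 46, and 265 CPM in the Tbx6-group cells, with a UMI in 30 of 37. The *Fgf8* median per cell was 260 CPM in the former and 85.2 CPM in the latter, so the plot of levels per cell shows the day 6 groups apart for *Fgf8* and *Hoxc10*, with overlap between them.

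**Figure D3:**
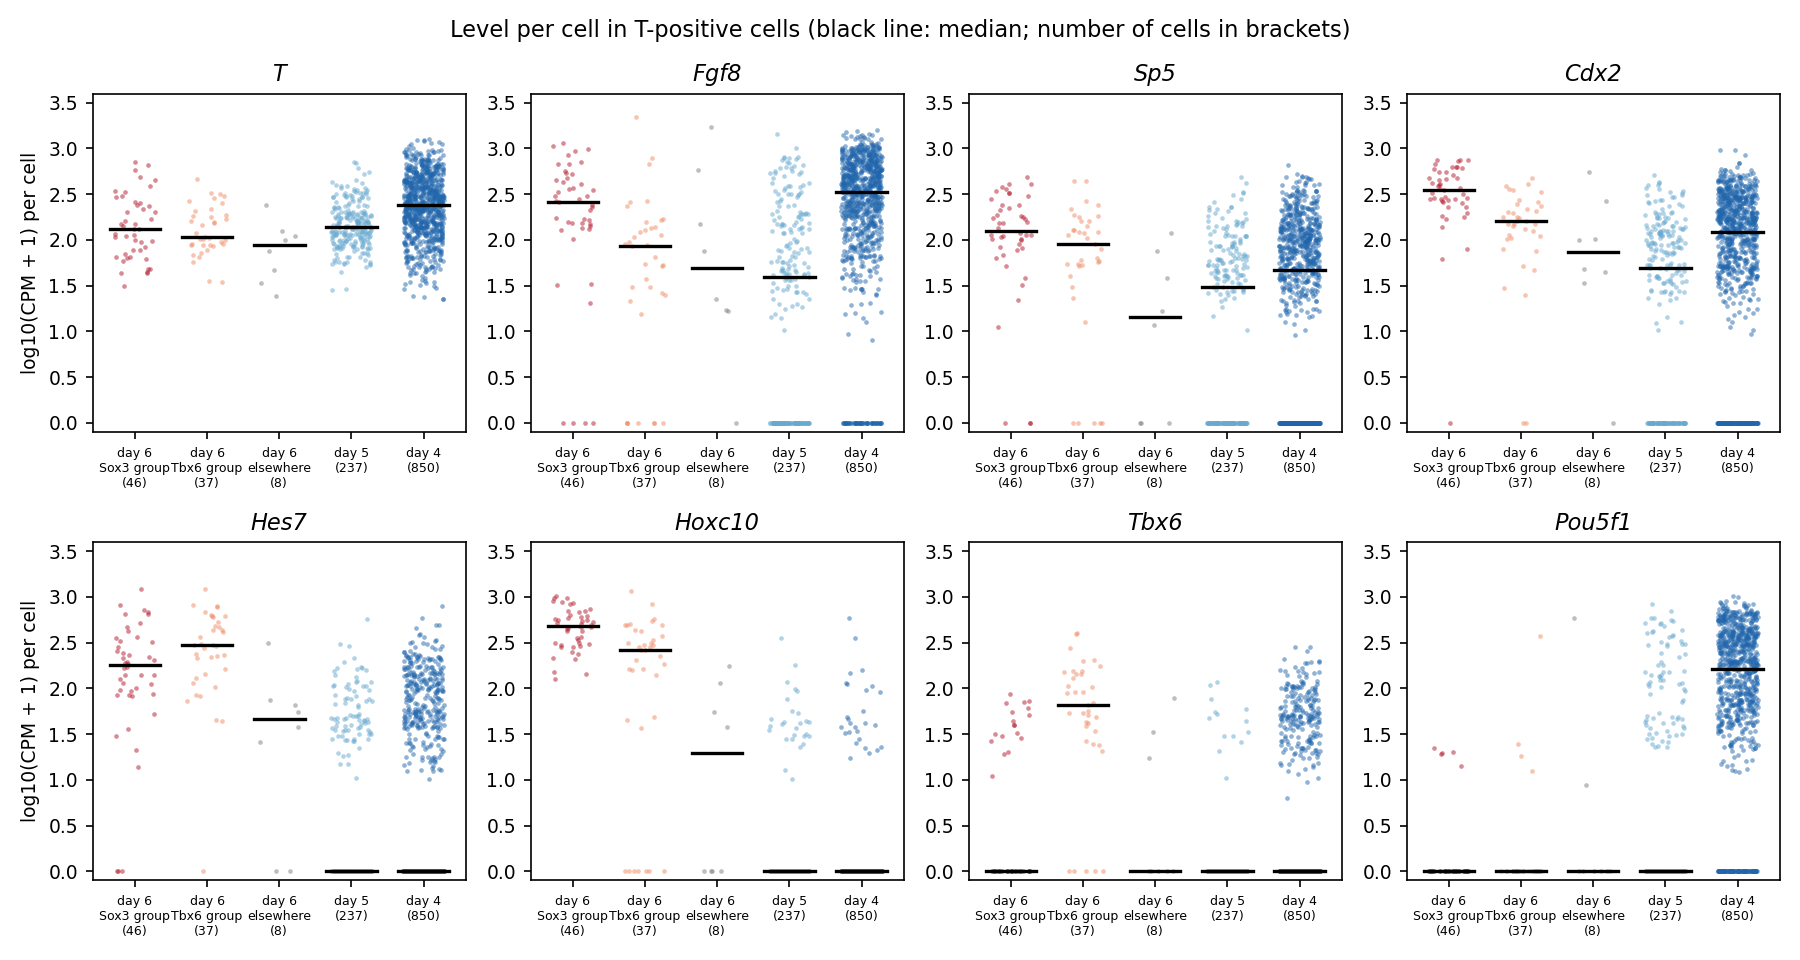
Level per cell, as log10 of CPM + 1, of 8 genes in T-positive cells of day 6 (by group), day 5 and day 4; each point is a cell and the black line is the median. Fgf8 has a median of 260 CPM in the 46 day 6 cells of the Sox3 group, 85.2 CPM in the 37 of the Tbx6 group and 334 CPM at day 4, and Hoxc10 has a median above 0 at day 6 only.

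T-positive cells also differed from the other cells of their own group. Within the Sox3 group, *Cyp26a1* was 144 CPM in T-positive and 10.2 CPM in other cells (14.2, 11.8 to 16.97), *Fgf8* 323 against 28.2 CPM (11.4, 10.2 to 12.8) and *Hes7* 215 against 19.0 CPM (11.3). The other cells included 11 with 3 or more UMIs of both *T* and *Foxa2*, and against the 468 with fewer than 3 *T* UMIs the ratios were 16.03 for *Cyp26a1*, 20.3 for *Fgf8* and 16.4 for *Hes7*. *Cdx2* was 344 against 88.1 CPM (3.91) and *Hoxc10* 480 against 185 CPM (2.602). Several genes of neural cells were lower in the T-positive ones, chosen after their values were seen. *Sox2* was 60.8 against 233 CPM (0.260, 0.217 to 0.309), the neural patterning genes *Pax6*, *Irx3* and *Zic1* had ratios of 0.268, 0.235 and 0.245, and *Crabp2*, a retinoic acid-binding protein, was 153 against 762 CPM (0.200). *Sox3* (0.614) and *Sox1* (0.686) stayed between the limits, and *Hes3* was at 22.4 against 14.3 CPM (1.569, 1.134 to 2.13).

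Within the Tbx6 group the gaps of *Fgf8*, *Cyp26a1*, *Hes7* and *Hoxc10* were smaller. *Sp8* was an exception, with a ratio of 2.465 (1.618 to 3.809) beside 1.860 (1.510 to 2.276) in the Sox3 group. *Fgf8* was 170 CPM in T-positive and 62.5 CPM in other cells (2.73, 2.22 to 3.36), *Cyp26a1* 22.8 against 4.46 CPM (5.11, 2.498 to 11.5), and *Hes7* 359 against 305 CPM (1.18). A single cell held 112 of the 284 *Fgf8* UMIs of these T-positive cells, and the ratio without it was not computed. *Tbx6* itself was 97.8 against 74.96 CPM (1.304), and *Hoxc10* was 256 against 200.3 CPM (1.278). Genes that were lower in the T-positive cells, chosen after their values were seen, included some of somitic mesoderm. *Fgf18* was 6.60 against 95.5 CPM (0.0691), the forkhead factor *Foxc2* 17.4 against 99.9 CPM (0.174), *Tcf15* 71.4 against 237 CPM (0.301) and *Mesp2*, which sets the somite boundary, had a ratio of 0.207 (0.0716 to 0.492). *Ripply2*, its repressor, had 0 UMIs in the T-positive cells and 41 in the others. The somite genes *Pax3* (0.9997, 0.596 to 1.66) and *Foxc1* (0.819) and the Notch genes *Dll3* (0.971) and *Lfng* (0.788) stayed between the limits.

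**Figure D4:**
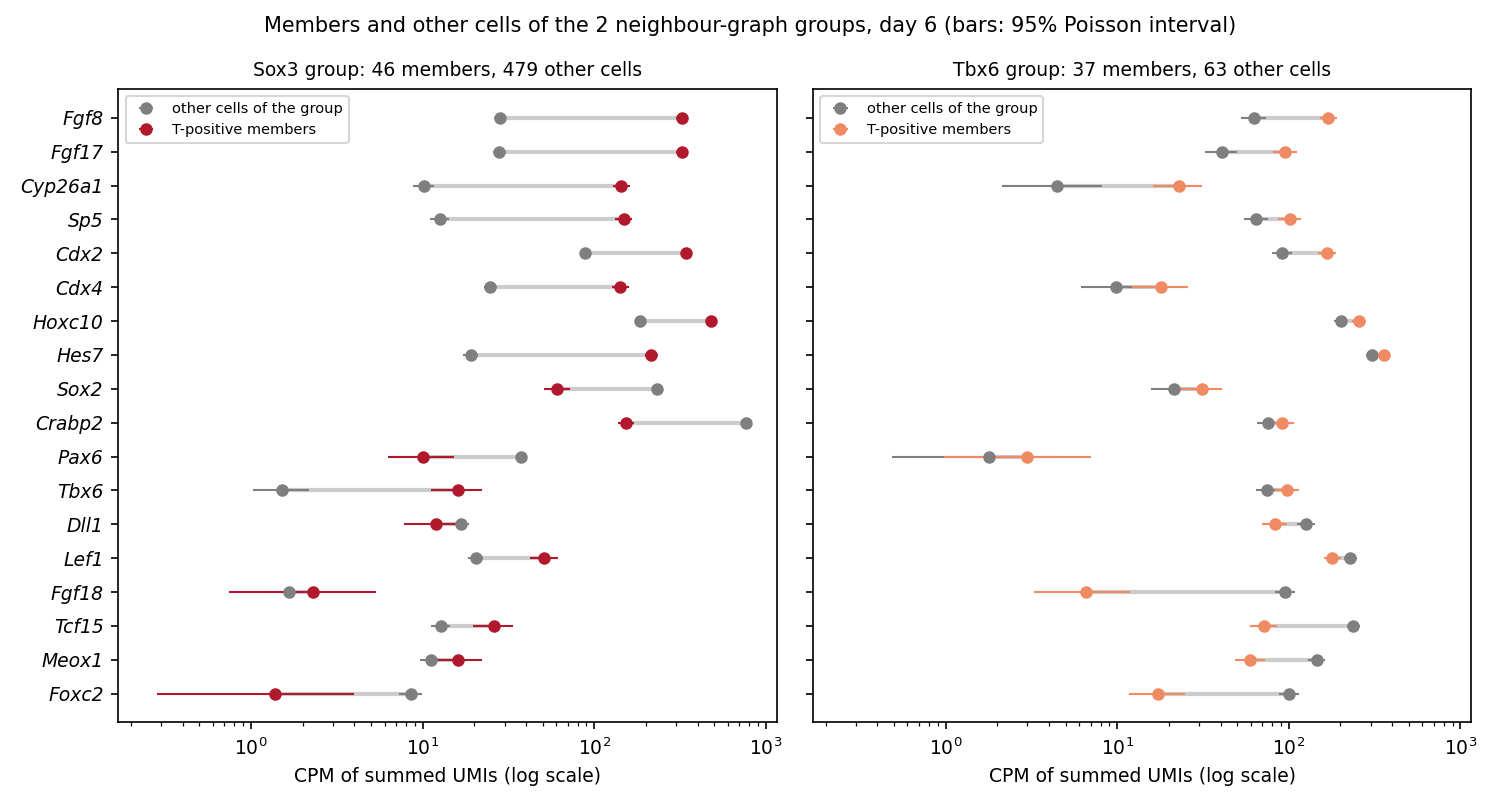
Summed expression (CPM, log axis) of 18 genes in T-positive cells and in the other cells of the Sox3 group (left) and of the Tbx6 group (right) at day 6; lines through the points are exact Poisson intervals at 95%. In the Sox3 group Fgf8 (323 against 28.2 CPM) and Cyp26a1 (144 against 10.2 CPM) are higher and Crabp2 and Sox2 lower in T-positive cells, and in the Tbx6 group Fgf18, Foxc2 and Tcf15 are lower.

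Sets below the *T* limit were also defined by UMI counts alone, and all 91 T-positive cells, those of the Sox3 group included, were set against them. Against 26 cells with 3 or more *Tbx6* UMIs and fewer than 3 of *T* (median 1, highest 2), the T-positive cells had *Fgf8* at 257 against 59.2 CPM (4.34), *Cdx4* at 78.2 against 8.84 CPM (8.85) and *Dll1* at 40.5 against 107 CPM (0.379). *Hes7* was lower in the T-positive cells here, at 254 against 372 CPM (0.683), and so was *Tbx6*, which chose the 26 cells, at 48.5 against 111 CPM (0.435). Within the Tbx6 group both ratios lay above 1, at 1.18 and 1.304. *Cyp26a1* had 1 UMI in the 26 cells. Of the Wnt genes, *Rspo3* was nearly equal (510.5 against 505.5 CPM, 1.01) and *Lef1* lower (0.616) in the T-positive cells. *Wnt5a* (1.64) and *Axin2* (1.98) were higher. Of the other leading genes of the first comparison, *Dll3* (0.535) and *Hoxb1* (0.574) were lower, with *Gm45889* (0.806) and *Foxb1* (0.880) nearer 1. *Fgf17* (3.43), *Epha5* (3.53) and *Cdx2* (2.13) were higher, and *Sp5* (1.48), *Hoxc10* (1.48) and *Hoxaas3* (1.195) less so. Against 522 cells with 3 or more *Sox2* UMIs and fewer than 3 of *T* and of *Tbx6*, *Hes7* had a ratio of 30.1, *Fgf8* of 23.1 and *Cdx2* of 3.92, whereas *Crabp2* had one of 0.202. The 26 day 6 cells with *T* that were left out for *Foxa2* had *Shh* at 22.4 CPM and *Epcam* at 283 CPM, against 0.686 and 13.0 CPM in the T-positive cells. Of these 26 cells, 13 were among the 8% of highest doublet scores, their median depth was 81855 UMIs and their *Myl7* stood at 549 against 174 CPM, and the part of doublets was not tested. Their *Fgf8* was near that of the T-positive cells, at 223 against 257 CPM.

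The second comparison set the T-positive cells of day 6 beside the 850 cells of day 4 with 3 or more *T* UMIs, which had a median depth of 28122 UMIs. It uses the same day 6 cells as the first, so the comparisons are not independent. No *Foxa2* limit was set at day 4, where 767 of the 850 cells had fewer than 3. Of 7508 genes at the level tested, 444 (5.91%) were called higher at day 6 and 238 (3.17%) lower, with a median ratio of 1.16. *T* was 140 CPM at day 6 and 248 CPM at day 4, which is a description of the selection.

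Hox genes were higher at day 6. Of 25 Hox genes tested of 39, 22 were higher at day 6 and none was lower, and against other day 6 cells 20 of 28 were higher and none lower. Of the genes whose call was not fixed by the level tested, 17 of 20 were higher than at day 4, with a median ratio of 4.45, and 17 of 25 higher than in other day 6 cells, with a median of 2.498. *Hoxc10* stood at 346 CPM at day 6 and 2.70 CPM at day 4, a ratio of 128 (103 to 162), with 3 or more UMIs in 77 of 91 and 9 of 850 cells, and any UMI after thinning in 64.8% and 1.18%. *Hoxa10* had a ratio of 22.3, *Hoxc9* of 12.6 and *Hoxc6* of 12.4. *Hoxb1*, an early anterior gene, was the same within its interval (74.6 and 68.1 CPM, ratio 1.095, 0.972 to 1.23).

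Summed by paralogue, the ratio of day 6 to day 4 over paralogues 1 to 11 ran from 1.16 at paralogue 1 to 72.65 at paralogue 10, without a steady order between, as it was 9.15 at paralogue 6 and 3.72 at paralogue 8. Paralogue 1 stood at 97.7 CPM at day 6 and 84.1 CPM at day 4, paralogue 4 at 280 and 51.3 CPM, and paralogue 9 at 474 and 76.5 CPM. Paralogue 10 stood at 452 and 6.22 CPM, and paralogue 11 at 63.4 and 1.81 CPM, so that the ratio to day 4 was lower again at paralogue 11. T-positive cells of day 5 had paralogue 10 at 15.2 CPM and paralogue 11 at 1.82 CPM, while the other day 6 cells had 54.7 and 6.89 CPM. The 26 day 6 cells with *Tbx6* and few *T* UMIs had paralogues 9, 10 and 11 at 446, 341 and 61.9 CPM. In the 522 with *Sox2* and few *T* UMIs they were at 358, 193.5 and 18.9 CPM. High levels of these paralogues at day 6 were thus not confined to the T-positive cells. The 91 cells held 1 UMI of paralogue 12 and 6 of paralogue 13, with ratios to day 4 of 1.74 (0.0353 to 17.6) and 1.127 (0.389 to 2.69). Paralogue 9 and 10 genes were thus abundant at day 6, and those of paralogue 13 were at 1.37 CPM.

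**Figure D5:**
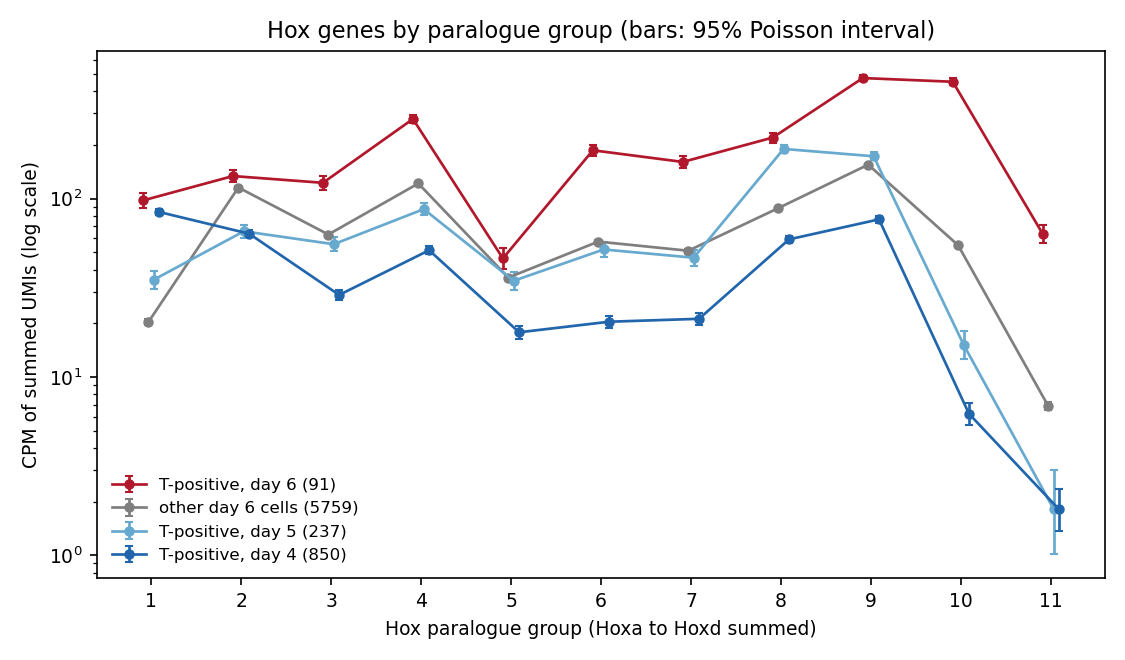
Summed CPM (log axis) of Hox genes by paralogue number in T-positive cells of day 4, day 5 and day 6 and in other day 6 cells; error bars are exact Poisson intervals at 95%. Paralogue 10 stands at 452 CPM in the T-positive cells of day 6, beside 15.2 CPM in those of day 5 and 6.22 CPM in those of day 4. Day 6 cells with Tbx6 and few T UMIs, not drawn, had 341 CPM.

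Pluripotency genes and genes of the primitive streak stood at low levels at day 6. Of 11 pluripotency genes 6 were tested, and the level tested fixed the calls of 3, among them *Nanog*. The other 3, *Pou5f1*, *Dppa5a* and *Dnmt3b*, were lower, with a median ratio of 0.0562. *Pou5f1*, the Oct4 gene, stood at 11.9 CPM at day 6 and 212 CPM at day 4, with 3 or more UMIs in 2 of 91 and 538 of 850 cells, and any UMI after thinning in 2.20% and 53.65%. At day 6, 2 cells held 23 and 20 of the 52 UMIs. Per cell it was found in 11 of the 91 cells, with a median of 0 and a highest value of 593 CPM, beside a median of 162 CPM at day 4. *Dppa5a* stood at 10.5 against 538 CPM (0.0196), with 21 of its 46 UMIs in 1 cell and a level of 4.15 CPM without the 8 cells outside the Sox3 and Tbx6 groups, and *Nanog* at 0.457 against 22.0 CPM (0.0208). *Pou5f1* was thus at 0 in most T-positive cells of day 6.

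Of 10 streak and Nodal pathway genes 6 were tested, and all 6 reached the level tested only through day 4, so that their lower call was fixed and their values are a description. Single cells held most UMIs of some of the Nodal genes, with 14 of 16 *Lefty1*, 7 of 9 *Lefty2* and 7 of 12 *Tdgf1* UMIs in 1 cell each. *Eomes*, a T-box factor of early mesoderm and endoderm, had 0 UMIs in the 91 cells and 26.1 CPM at day 4, which makes it at least 38.1-fold lower against the limit of 3 UMIs over the set. *Mixl1*, a streak factor, had the highest ratio of the 6, at 6.404 against 23.7 CPM (0.271, 0.178 to 0.395), with a UMI in 12 of 91 cells and 15 of the 28 UMIs in 1 cell. *Mesp1*, of early cardiac and head mesoderm, stood at 3.89 against 118 CPM (0.0331), a call that the level tested fixed as well. The Nodal genes *Tdgf1*, *Lefty2*, *Cfc1* and *Lhx1*, the last a factor of anterior streak derivatives, had ratios between 0.0251 and 0.0435. Of 5 endodermal genes tested of 10 the level fixed the calls of 3, and the other 2 were lower too, with *Epcam* at 13.0 against 137 CPM. The limit on *Foxa2*, an endodermal factor, was set at day 6 only, and 767 of the 850 day 4 cells had fewer than 3 of its UMIs; the part of this limit in the endodermal difference was not tested. *Spink1* had the lowest ratio of all leading genes, 0.00793, from 2 UMIs. The rest of the lowest 10 were *Mt2*, *Bst2* and *L1td1*, with ratios of 0.0200, 0.0273 and 0.0296.

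The tailbud genes themselves were split between the days. Of 11 posterior progenitor factors tested, *Cdx4* (78.2 against 9.31 CPM, 8.40) and *Sp8* (44.4 against 21.9 CPM, 2.03) were higher at day 6, and *Cdx1* (7.78 against 53.7 CPM, 0.145) and *Nkx1-2* (8.004 against 21.3 CPM, 0.376) were lower. The call of *Nkx1-2* was lost when cells were thinned to 5000 UMIs, at a ratio of 0.812. The median ratio was 0.994. *Cdx2* (248 against 133 CPM, 1.86), *Sp5* (117 against 72.3 CPM, 1.61), *Evx1* (0.994) and *Sox2* (0.954) were inside the 2-fold limits. *Cdx2* had 3 or more UMIs in 90.1% of day 6 and 61.8% of day 4 cells, and any UMI after thinning in 59.3% and 46.7%.

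Most of the signalling genes tested stayed inside the 2-fold limits. In the Wnt list, *Nkd1* and *Tnfrsf19* were higher and *Wnt3* (2.06 against 23.0 CPM, 0.0896) and *Axin2* (19.2 against 42.1 CPM, 0.457) lower, of 12 tested, with a median of 1.16, the same as over all genes. The level tested fixed the call of *Wnt3*, and of the other 11 genes 2 were higher and 1 lower. *Wnt3a* was nearly equal, at 11.9 and 12.01 CPM. In the FGF list 4 of 13 were higher and none lower, led by *Fgf17* (203 against 24.1 CPM, 8.45), while *Fgf8* was 257 against 328 CPM (0.784, 0.736 to 0.834). *Dusp6* and *Etv4* had ratios of 2.47 and 2.53. In the retinoic acid list *Cyp26a1* (2.35) and *Crabp2* (2.04) were higher and *Aldh1a2* (5.03 against 23.0 CPM, 0.219) lower, of 6 tested. The level tested fixed the call of *Aldh1a2*, and of the other 5 genes 2 were higher and none lower. Without the 8 cells outside the Sox3 and Tbx6 groups, *Crabp2* was at 1.96 and so not called, while *Cdx2* (2.015) and *Wnt5a* (2.04) were called higher and the FGF feedback gene *Dusp4* (0.498) lower.

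Some clock genes, and the somite genes tested, were higher at day 6. Of 10 Notch and clock genes tested, *Hes7* (254 against 34.6 CPM, 7.34), *Nrarp* (4.10), *Dll1* (2.79), *Hes5* (2.47) and *Dll3* (2.12) were higher and *Hes1* (65.2 against 152 CPM, 0.430) was lower, with 4 between the limits. *Tbx6* stood at 48.5 against 14.2 CPM (3.40, 2.87 to 4.02). All 4 somite genes tested of 9 were higher, 2 of them by a call the level tested fixed, with *Meox1* at 36.1 against 0.559 CPM (64.6), of which 1 cell held 49 of the 158 UMIs. The kinds of cell differed as well, with *Tbx6* at 3 or more UMIs and *Sox2* below in 20 of 91 cells at day 6 and 41 of 850 at day 4. At day 4 both genes were at 1 or more UMIs in 78 of 850 cells (9.18%), beside 31.9% at day 6, where depth was greater. After thinning these were 4 of 850 (0.471%) and 0 of 91 cells.

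Several leading genes of this comparison came from a few cells. *Tnnt2* had the highest ratio, 145, followed by *Hoxc10* and by *Actc1*, whose interval was 70.2 to 147, and *Myl4*, *Myl3* and *Tnni1* were also among the first 15. Without the 8 cells outside the Sox3 and Tbx6 groups, *Tnnt2* stood at 8.82 CPM with a ratio of 20.6, *Actc1* at 17.4 CPM with 16.0, and *Myl3* at 2.07 CPM with 1.19 (0.488 to 2.52). *Hoxc10* had a ratio of 142 without them. The other leading genes were *Igfbp5* (42.6), *Acta2* (19.4), *2610528A11Rik* (16.5), the Notch ligand relative *Dlk1* (13.8), *Lmo2* (12.5) and *Gm49708* (12.2).

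Day 5 lay between for some genes and not for others. The 237 T-positive cells of day 5 had *Pou5f1* at 77.3 CPM, between 212 CPM at day 4 and 11.9 CPM at day 6, and *Dppa5a* at 498 CPM, close to day 4. *Fgf8* was lowest at day 5, at 110 CPM, as were *Sp5* at 55.9 CPM, *Cdx2* at 71.4 CPM, *Cdx4* at 0.486 CPM and *Tbx6* at 2.79 CPM. Of these cells, 48 held neither *Fgf8* nor *Sp5* (20.3%), whereas 4 of 91 did at day 6 and 33 of 850 at day 4. The order of the days for these genes was thus not monotonic, and each day is 1 library.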

How the data were processed

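Single cell RNA-seq libraries were made by the authors from Zx1 gastruloids at days 4, 5, 6 and 11 (1 library per day). The authors deposited UMI counts per gene and cell, without normalization; per the labels' processing notes, Cell Ranger 3.1.0 and mm10 were used, and the matrix headers name version 3.1.0 (days 4 to 6) and 6.0.1 (day 11). These counts sum to 227398362, 236714826, 182150138 and 149169498 UMIs. Here, CPM, percent and ratio values were computed from the deposited counts.

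The T-positive cells (members) and gene lists were chosen with earlier results of these data known. Cells had at least 2000 UMIs and under 20% mitochondrial UMIs. Ratios are of summed CPM. Genes with a mean of at least 10 CPM over both sets were compared, at a fold of 2. Genes named are *T*, *Foxa2*, *Fgf8*, *Sp5*, those of the lists and Hox clusters, the 15 highest and 10 lowest ratios with at least 50 CPM in the higher set, and the 3 leading genes of groups with 10 or more members; a few others were chosen after their values were seen, and list examples include genes chosen so. With 1 library per day there was no test. Intervals (95%) are Clopper-Pearson for shares, exact Poisson for CPM and exact conditional binomial for ratios. Zero counts are limited by 3 counts. Grouping used log-normalized counts, 2000 variable genes, 30 principal components, 20 neighbours and Leiden at resolution 1 (leidenalg 0.10.2, scikit-learn 1.9.0, Python 3.11.15). Doublet scores used 2 simulated doublets per cell and no cell was removed. The ratio code was tested on simulated data. Alternatives are given in the closing section. Promoters are from RefSeq.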

Additional observations from a re-analysis of the deposited data

How the results depend on the processing

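No paired analysis was possible because each day has 1 library. The size of the T-positive set, 1.56% of day 6 cells, was 2.38% at 2 or more *T* UMIs, 0.889% at 5 or more, 0.992% at 100 CPM or more, 2.00% without the limit on *Foxa2* and 0.0698% (4 cells) at 3 or more UMIs after thinning to 5000, which leaves out 115 shallower cells. The counts of genes past 2-fold (183 higher and 518 lower against other day 6 cells, 444 and 238 against day 4) were 885, 1220, 1221 and 792 for those 4 cells. They were 414, 846, 689 and 431 with all cells thinned, and 85, 270, 141 and 125 at 3-fold. A level of 5 CPM gave 795 and 401 lower genes, and 20 CPM gave 271 lower, and 282 higher and 129 lower against day 4. The cause of these shifts was not tested. The share of T-positive cells with *Fgf8* after thinning to 5000 UMIs, 55.0%, was 44.0% at 3000, 65.9% at 10000 and 30.8% at 2 or more UMIs; that of *Sp5*, 42.9%, was 65.9% at 10000 and 15.4% at 2 or more UMIs. With a limit of 5 UMIs, 16 cells had *Sox2* only and 12 *Tbx6* only; with a limit of 1, 29 had both and 10 neither. Over the alternatives, the ratio to other day 6 cells ran from 18.8 to 31.4 for *Fgf8*, 26.9 to 43.3 for *Sp5* and 9.38 to 14.9 for *Cdx2*, and more widely for *Nkx1-2* (5.33 to 32.00) and *Wnt3a* (21.2 to 61.2). No ratio past 2-fold changed direction among the 8 genes followed, but ratios nearer 1 crossed it: *Pou5f1* against other day 6 cells ran from 0.986 to 3.73, and against day 4 *Sox2* ran from 0.808 to 1.250 and *Wnt3a* from 0.499 to 1.402. *Nkx1-2* against day 4 ran from 0.254 to 0.812, past the 2-fold limit. Of these ratios, 79 moved by more than counting error and 137 did not. Alternatives chosen after seeing the data left out the 8 T-positive cells outside the Sox3 and Tbx6 groups (204, 584, 448 and 262 genes) or the *Myl7*-rich cell (185, 532, 438 and 246). Leaving out cells with *T* from the rest of a group and thinning pairs of genes were also chosen after seeing the data. With 1 library per day, variation between gastruloid batches is not measured.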

Other observations

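Genes of cell division, metabolism and adhesion were also listed for the T-positive cells of day 6. None of the 12 S phase and none of the 12 G2 and M phase genes passed 2-fold against other day 6 cells, with median ratios of 1.40 and 1.303 beside 1.02 over all genes. The replication factor *Mcm7* stood at 209 against 135 CPM and the ribonucleotide reductase gene *Rrm2* at 257 against 159 CPM, whereas the proliferation marker *Mki67* was at 99.3 against 124 CPM. Of the 14 glycolysis genes, *Pfkp* (11.2 against 45.2 CPM) and *Pdk1* (21.5 against 49.1 CPM) were lower and none was higher, with a median ratio of 0.766. Of the 8 adhesion and mesenchymal transition genes tested, *Vim* (491 against 1512 CPM), *Snai2*, *Itga6* and *Epcam* were lower, while *Cdh2* was at 100.4 against 88.8 CPM.

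Against T-positive cells of day 4, *Rrm2* was the single S phase gene past 2-fold, at a ratio of 2.17, and no G2 and M phase gene passed it. *Slc2a3*, a glucose transporter of early embryo cells, was lower at 67.2 against 212 CPM (0.317), as was *Pfkp* (0.417), among the 14 glycolysis genes. Of the 4 germ cell genes tested, *Dppa3* had 0 UMIs in the 91 cells against 20.2 CPM, which is at least 29.5-fold lower, and *Dnd1* had a ratio of 0.273. The level tested fixed both of these calls, and the other 2 genes, *Tfap2c* and *Ifitm3*, were not called. A single cell held 12 of the 23 *Dnd1* UMIs. Without the 8 cells outside the Sox3 and Tbx6 groups all 4 genes were lower.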
